A study of Xenopus laevis with 3 samples.

Results

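The transcripts examined here encode keratins, other intermediate filament proteins, nuclear lamins, and the proteins of desmosomes, in inner ears of *Xenopus laevis* larvae of stages 50 to 52 (*s50*). Members were the probe sets (Xl-PSIDs) that carry a single gene symbol in the platform's annotation, where that symbol is a keratin (*krt*), vimentin, desmin, a lamin, a plakin, a desmosomal cadherin, a plakophilin, plakoglobin, *perp*, *pof1b*, *tp63* or a grainyhead-like gene (*grhl*). The pattern selected 85 of 32635 Xl-PSIDs, which measure 60 of the 11303 gene symbols on the array. Copies on the L and S subgenomes of the allotetraploid *X. laevis* and tandem copies were kept apart. No member Xl-PSID was annotated as desmin, a desmoglein or plectin, so these genes were not analysed here.

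RNA came from 3 pools of 15, 38 and 24 purchased larvae aged 15 to 21 days, and each pool was hybridized to 1 array, named s50_1, s50_2 and s50_3 here. RNA inputs to labelling were 1, 1 and 0.7 µg. The labels name no treatment and the arrays form 1 stage group, so no stage or treatment was compared and no test was made. Values are log2 intensities after GCRMA, given as means ± SD over the 3 pools. Detection required a mean of 4 or more. The study's methods asked for this minimum average intensity before an Xl-PSID was called upregulated. Its use as a detection threshold was a choice made here. Intensities also depend on the probes, so the order of levels between Xl-PSIDs is not an order of transcript abundance. In a whole organ, fewer cells of a type and less RNA per cell cannot be told apart.

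Keratins form filaments as pairs of a type I and a type II chain, and these filaments give epithelial cells mechanical strength. Desmosomes anchor the filaments at cell contacts. Cadherins span the gap between cells, the armadillo proteins plakoglobin and plakophilin bind the cadherins inside the cell, and desmoplakin links them to keratin. In simple epithelia the usual chains are keratins 7, 8, 18 and 19, while stratified epidermis uses other members of the family. Supporting cells of the mammalian inner ear are known to contain keratins 8, 18 and 19 and vimentin. Lamins line the inside of the nuclear envelope in all cells.

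The labelled tissue was checked against markers of the inner ear. The otic fibrocyte and supporting cell gene *otos.L* had 14.56 ± 0.05, *otoa.L*, which anchors the acellular membranes over the hair cells, had 12.53 ± 0.25, and *myo6.L*, a motor protein of hair cells, had 12.65 ± 0.44. Of 14 listed hair cell genes only 2 were measured, *myo6.L* and *ush1c.S*, and both were detected, so the check covers few hair cell genes. Of 7 measured genes of otoconia, tectorial membrane and supporting cells, 6 were detected. Genes of neighbouring tissues were bright too, such as cartilage collagen *col2a1.L* with 14.62 ± 0.23 and muscle creatine kinase *ckm.L* with 13.90 ± 0.64. Among 6 measured genes of larval epidermis and skin glands, the epidermal lectin *itln1.L* (1.90 ± 0.02), *foxi1.L* (2.03 ± 0.15), *levi.L* (2.07 ± 0.05) and *levi.2.L* (2.17 ± 0.08) were not detected, whereas the skin gland gene *magainins.L* had 9.08 ± 0.74. The proton pump subunit gene *atp6v1b1.L* was detected with 4.95 ± 1.99. The 42 control Xl-PSIDs that target *Bacillus subtilis* lay between 1.83 and 2.17 and mark the floor of the arrays.

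Of the 85 member Xl-PSIDs, 57 (67.1%) were detected, beside 64.8% of all Xl-PSIDs and 73.3% of those with a single gene symbol. They represent 41 of the 60 gene symbols. The median level of the members was 8.56. It was 7.49 for all Xl-PSIDs and 8.78 for those with a single gene symbol. Detection was uneven over the roles. Of 22 Xl-PSIDs for plakins, desmosomal cadherin, armadillo proteins, *perp* and *pof1b*, 21 were detected. Of 40 keratin Xl-PSIDs 28 were detected, of 11 lamin Xl-PSIDs 4, and of 8 for the regulators *tp63* and *grhl* none. No mean lay within 0.5 of the threshold. The nearest below were an Xl-PSID of *lmnb1.S* (3.43 ± 0.05) and *krt70.L* (3.35 ± 1.27), and the nearest above was *krt57.L* (4.75 ± 1.12). Both *krt70.L* and *krt57.L* lay within 1 SD of it. So did *krt12.6.L* (2.89 ± 1.30) and *grhl3.S* (2.74 ± 1.27) below the threshold. Above it, this held for *krt18.3.L* (5.22 ± 1.49), *krt61.L* (5.44 ± 2.38) and an Xl-PSID of *pof1b.S* (5.21 ± 2.56). Detected members numbered 59 at a threshold of 3, 56 at 5, and 54 where each array had to reach 4.

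**Figure D1:**
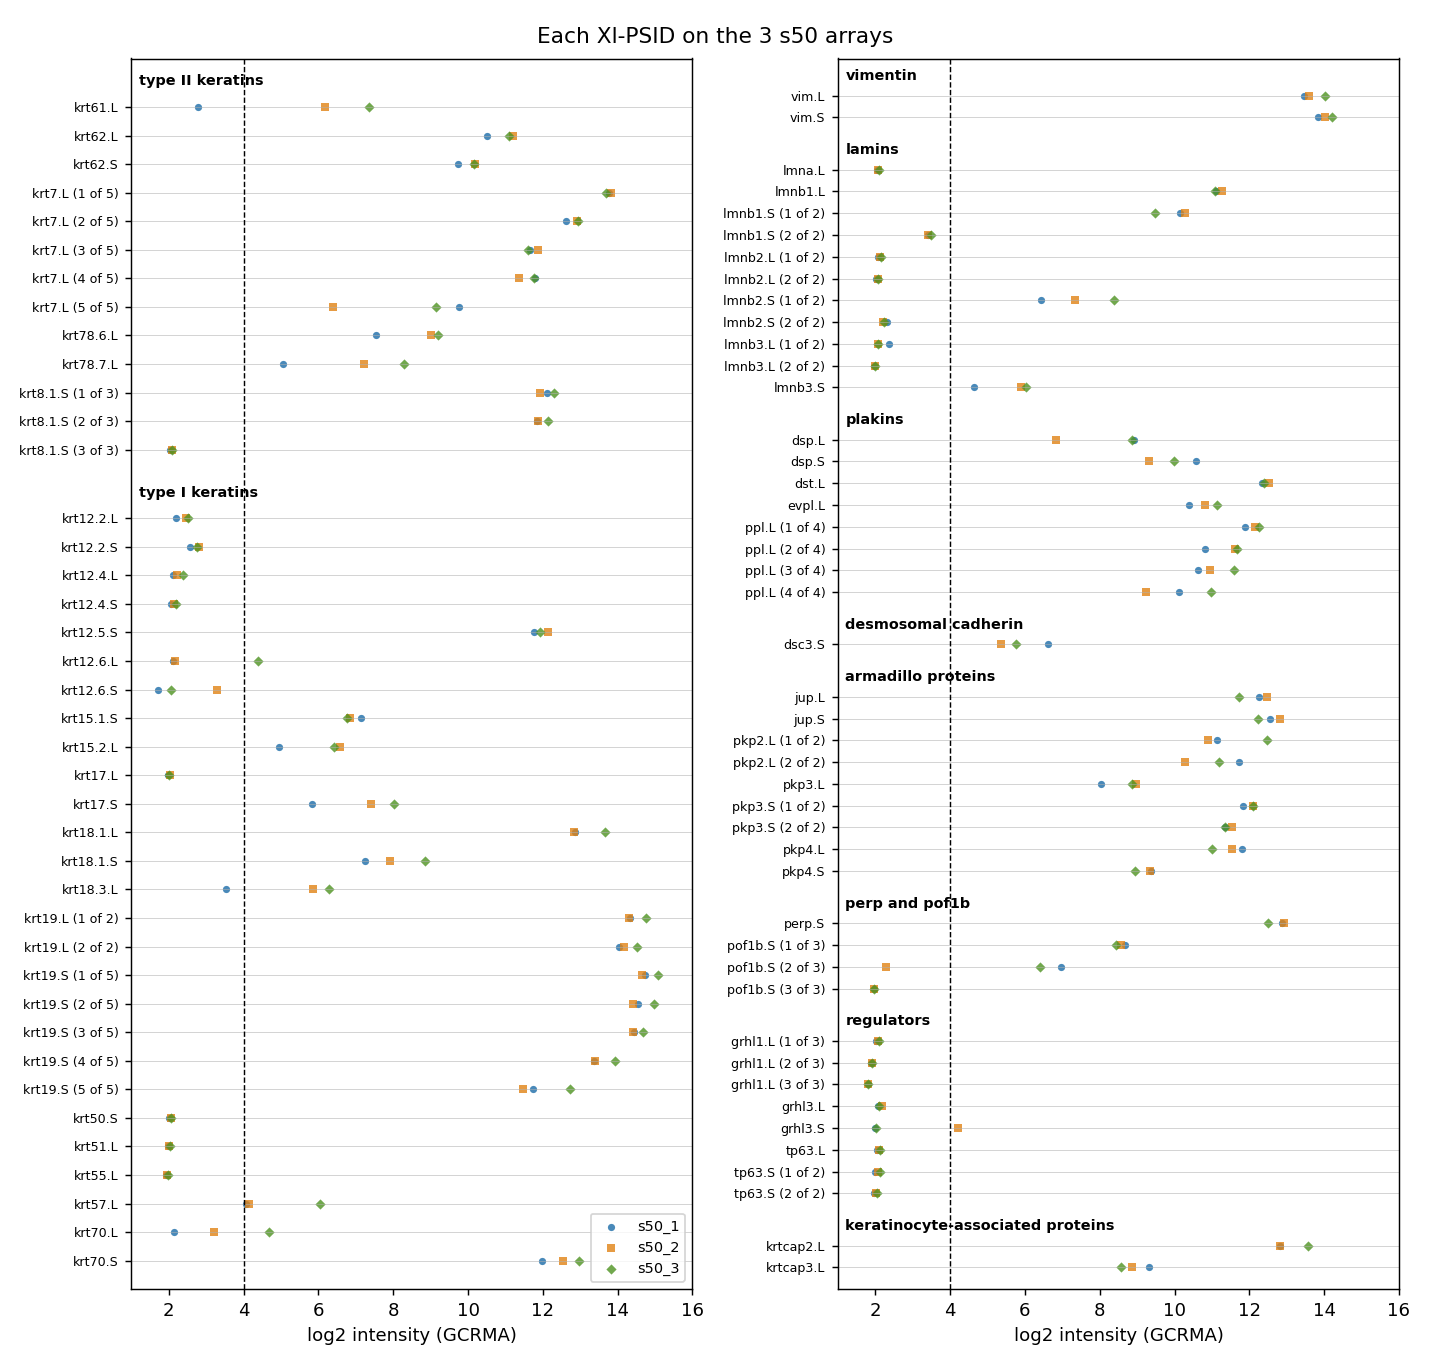
Log2 intensity of all 85 member Xl-PSIDs on s50_1 (circles), s50_2 (squares) and s50_3 (diamonds), grouped by role, with keratins on the left and other members on the right. The dashed line marks the detection threshold of 4, and a number in brackets counts the Xl-PSIDs of a gene by level. Desmosome genes lie mostly to the right of the line, while all means of *tp63* and *grhl* lie to its left.

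Genes whose current symbols name keratins 7, 8, 18 or 19 were grouped by symbol, after seeing values. The type I keratin gene *krt19.S* was measured by 5 Xl-PSIDs. The brightest (Xl2.5100.2.S1_x_at) had 14.74, 14.66 and 15.09 on s50_1, s50_2 and s50_3. The means of the others ran from 14.65 down to 11.98. All 5 were highest on s50_3, and their SDs lay between 0.15 and 0.67. The L copy, *krt19.L*, had 14.34, 14.31 and 14.75 on its brighter Xl-PSID and 14.23 ± 0.25 on the other. An additional Xl-PSID that the annotation assigns to both copies, and which is therefore not a member, had 15.07 ± 0.13. RefSeq lists krt15 and krt9 as earlier or other names of *krt19*, so its place among simple epithelial keratins rests on the symbol.

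Keratin 18, the type I partner of keratin 8, was represented by *krt18.1.L*, which had 12.85, 12.83 and 13.66, and *krt18.1.S*, which had 7.23, 7.91 and 8.85. A further gene of this name, *krt18.3.L*, had 3.52, 5.85 and 6.29. On s50_1 it was below the threshold, and its mean was 5.22 ± 1.49. All 3 genes were highest on s50_3.

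The type II genes of this group were *krt8.1.S* and *krt7.L*. RefSeq synonyms of *krt7.L* include krt5.7 and ck55, so its name is not settled as a chain of simple epithelia either. The gene *krt8.1.S* had 12.10, 11.91 and 12.29, with 11.94 ± 0.16 on a second Xl-PSID (Xl2.4511.1.A1_s_at). Another (Xl2.4511.1.A1_x_at) was at the floor with 2.06 ± 0.03. By their suffixes, the probes of both Xl2.4511.1.A1_s_at and Xl2.4511.1.A1_x_at may also match other transcripts. For *krt7.L*, 4 of 5 Xl-PSIDs had means between 11.64 and 13.77 with SDs up to 0.23. The brightest of them had 13.78, 13.82 and 13.70, the smallest SD among detected members at 0.06. The remaining one (Xl2.1642.6.A1_a_at) had 9.76, 6.39 and 9.16, so it was more than 2 below the other arrays on s50_2 alone. Xl-PSIDs of *krt7.L* and *krt8.1.S* share a cluster number in their IDs, and signal of one gene on probes of the other was not tested. For the 7 genes named for keratins 7, 8, 18 and 19, 17 of 18 Xl-PSIDs were detected, beside 73.3% of all Xl-PSIDs with a single gene symbol. The median level over the 18 was 12.47, and most of the 18 belong to *krt19* and *krt7*.

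The other keratins fell on both sides of the threshold. Of these 22 genes, each with 1 Xl-PSID, 11 were detected, beside the same 73.3%, and their median level was 4.05. The medians of the keratin groups rest on different probes and are not an order of abundance. The brightest was *krt70.S*, the embryonic epidermal keratin known as XK70, with 11.99, 12.55 and 12.97. Next came *krt12.5.S*, listed in RefSeq under the synonym xk81b2, with 11.78, 12.15 and 11.94. In contrast, the copies of *krt12.4*, which hold the epidermal keratin XK81A1 of the early embryo, were both near the floor with 2.23 ± 0.13 (L) and 2.13 ± 0.07 (S). The same was seen for *krt12.2.L* (2.39 ± 0.17) and *krt12.2.S* (2.71 ± 0.12).

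Some of these genes carry RefSeq synonyms that are read here as abbreviations of larval or adult keratins, which RefSeq does not spell out. The type II genes *krt62.L* and *krt62.S*, with the synonym XLK from *Xenopus* larval keratin, had 10.51, 11.21 and 11.10, and 9.73, 10.19 and 10.17. Both were lowest on s50_1. A probe set assigned to both copies, which the rule leaves out, had 11.65 ± 0.09. The type I gene *krt15.2.L*, with the synonym xlk2, had 4.95, 6.56 and 6.42. All 3 genes were thus above 4 on every array.

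The genes with the synonyms xak-a, xak-b and xak-c, from *Xenopus* adult keratin, were not detected. Values were 1.97, 2.01 and 2.03 for *krt51.L* (xak-a) and 1.93, 1.96 and 1.97 for *krt55.L* (xak-b). For *krt12.6.S* (xak-c) they were 1.72, 3.28 and 2.06, and its L copy had 2.11, 2.17 and 4.39. Among these 4 Xl-PSIDs the value of *krt12.6.L* on s50_3 was the single one above 4. An intensity at the floor gives an upper bound and does not show that a transcript was absent.

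The remaining keratin genes were intermediate or near the floor. The type II genes *krt78.6.L* and *krt78.7.L* had 7.55, 9.02 and 9.21, and 5.06, 7.23 and 8.29. The type II gene *krt61.L* had 2.78, 6.19 and 7.35, below the threshold on s50_1. These 3 genes shared an order of arrays, with s50_1 lowest and s50_3 highest. The same order held for *krt17.S*, a keratin that mammals express in epidermal appendages, with 5.83, 7.41 and 8.02. Its L copy stayed between 1.98 and 2.02. For *krt57.L* the values were 4.05, 4.16 and 6.05, and *krt15.1.S* had 7.13, 6.84 and 6.75. The gene *krt50.S* (2.04 ± 0.03) was at the floor.

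Most keratin genes lie next to each other in the genome. In RefSeq (assembly Xenopus_laevis_v10.1) the type I genes form a run of 21 keratin genes on the L subgenome and 16 on the S subgenome, with up to 2 other protein-coding genes between neighbours. Members measured 10 and 9 of them. Detection was uneven along the run. At the end with *krt70*, *krt17*, *krt19* and *krt15* (*krt15.2.L* and *krt15.1.S*), 2 of 4 measured genes were detected on L and 4 of 4 on S. From *krt12.2* to the other end, it was 1 of 6 on L, *krt57.L*, and 1 of 5 on S, *krt12.5.S*. The gene *krt12.5.S*, at 11.95 ± 0.19, stands between *krt12.4.S* (2.13 ± 0.07) and *krt12.6.S* (2.35 ± 0.82). The type II run holds 17 and 13 keratin genes, among them *krt18.1*. All 6 and 3 measured genes were detected, and most genes of this run were not measured. Beside these counts, 73.3% of all Xl-PSIDs with a single gene symbol were detected. That share counts every Xl-PSID, whereas a gene of a run counts by its brightest, so the counts are not matched to it. The contrast along the runs was noticed in the values, and the point of division was set after seeing them. Neighbours with similar sequence may share probes.

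**Figure D2:**
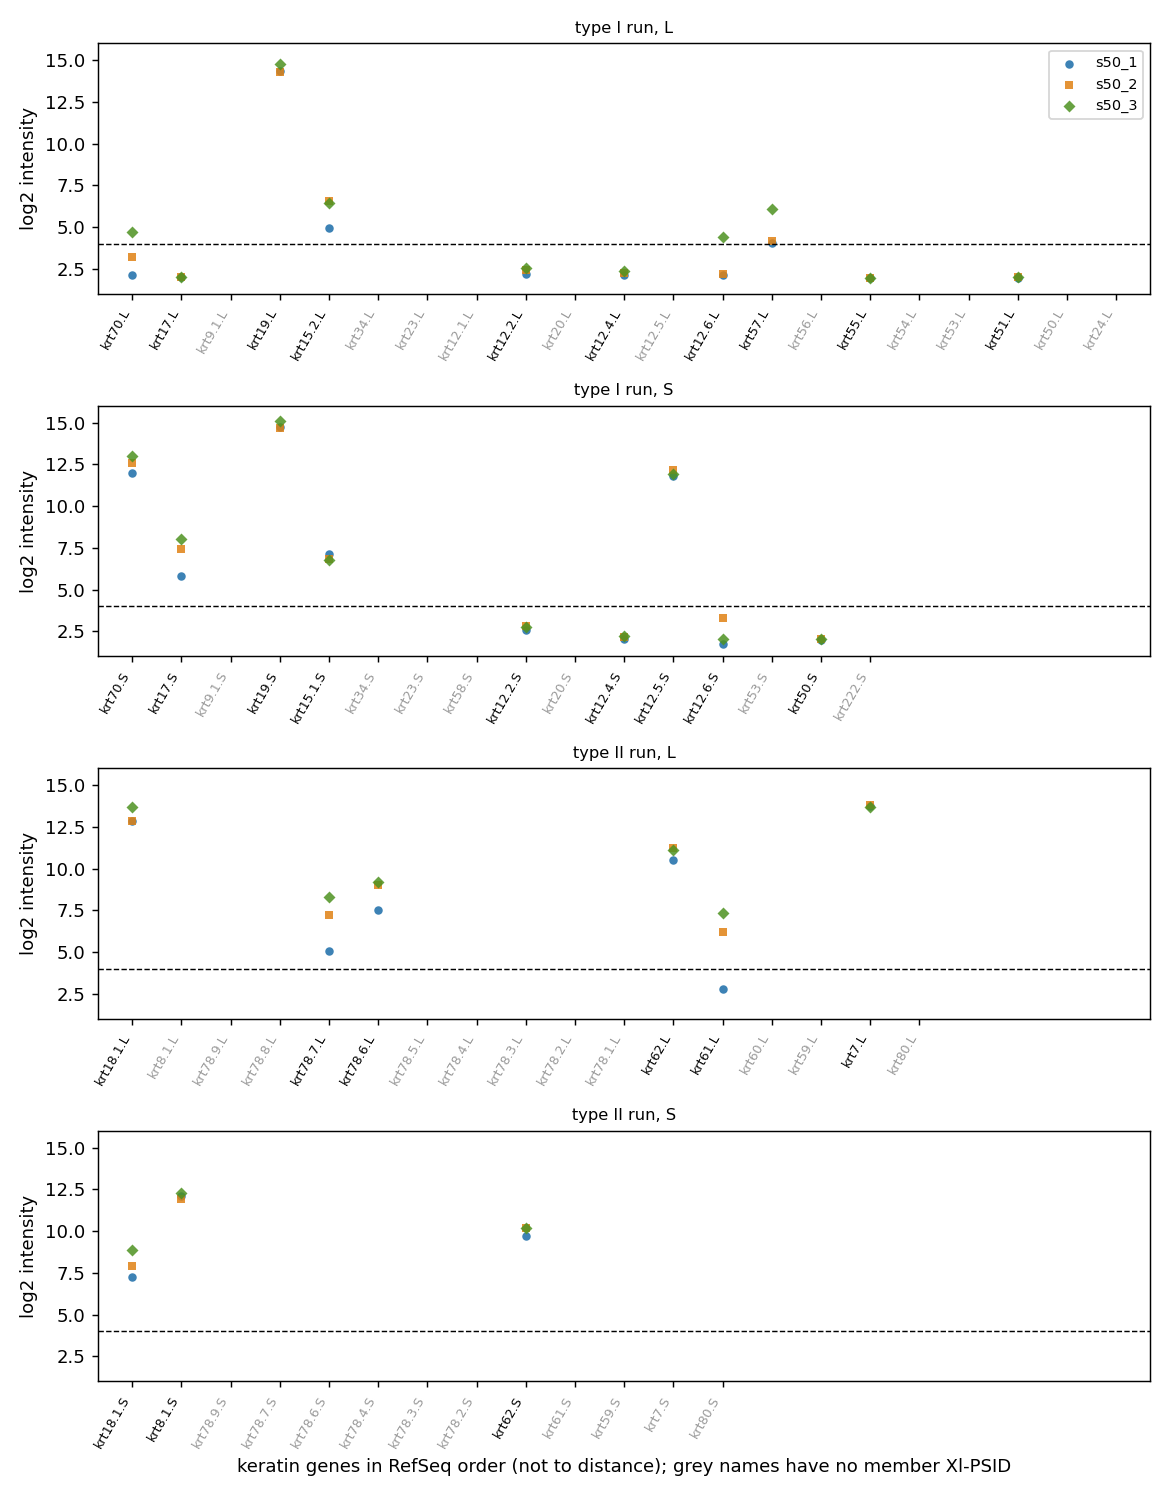
Log2 intensity of keratin genes on each array (circles s50_1, squares s50_2, diamonds s50_3) in their order along the type I and type II runs of the L and S subgenomes, by the brightest Xl-PSID of a gene. Spacing is by order and not by distance, grey names are genes with no member Xl-PSID, and the dashed line is the threshold of 4. In the type I runs, the values of measured genes from *krt12.2* onward lie below the line, except those of *krt57.L* and *krt12.5.S* and the s50_3 value of *krt12.6.L*.

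The intermediate filament protein vimentin, typical of mesenchyme and glia, was bright from both copies. The values of *vim.S* were 13.83, 14.03 and 14.21, and those of *vim.L* were 13.46, 13.60 and 14.02. Neither copy varied by more than 0.57 between arrays. On a list of further intermediate filament proteins, 6 of 10 measured genes were detected, beside 73.3% of Xl-PSIDs with a single gene symbol. All 6 detected genes are neuronal. They were *nefl.L* (11.57 ± 0.28), *nefm.S* (11.65 ± 0.46), *nefm.L* (11.33 ± 0.54), *ina.L* (11.33 ± 0.19), *prph.L* (11.04 ± 0.75) and *prph.S* (10.64 ± 0.59). The S copy of the neuronal gene *ina* (*ina.S*, 2.03 ± 0.02), the progenitor filament gene *nes.S* (2.64 ± 0.48), the lens filament gene *bfsp1.L* (2.01 ± 0.03) and *fam83h.L* (2.05 ± 0.01) were not.

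Among the lamins, the B-type gene *lmnb1* was the brightest. Its L copy had 11.11, 11.28 and 11.09, and its S copy had 10.14, 10.28 and 9.49 on an Xl-PSID and 3.43 ± 0.05 on the other. The S copy of *lmnb2* had 6.42, 7.35 and 8.38 on one Xl-PSID but 2.26 ± 0.05 on the other, and both Xl-PSIDs of *lmnb2.L* were at the floor (2.11 ± 0.05 and 2.05 ± 0.02). The Xl-PSIDs of 1 gene thus gave opposite answers in both cases. The gene *lmnb3*, whose product is the main lamin of the *Xenopus* oocyte, had 4.65, 5.90 and 6.04 from its S copy, and up to 2.17 ± 0.17 from its L copy. The A-type lamin *lmna.L*, known from differentiated cells, was at the floor on its single Xl-PSID with 2.04, 2.08 and 2.09.

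Plakins, which tie filaments to junctions, were detected with all 8 of their Xl-PSIDs. Desmoplakin, which joins keratin to the desmosome, had 10.57, 9.31 and 9.98 from *dsp.S* and 8.91, 6.83 and 8.85 from *dsp.L*. Both copies were lowest on s50_2. The plakin of the epithelial cell envelope *ppl.L* had 11.89, 12.16 and 12.26 on its brightest Xl-PSID and means of 10.11 to 11.36 on 3 others. Its partner *evpl.L* had 10.38, 10.80 and 11.12. The cytoskeletal linker gene *dst.L*, which has an epithelial form in hemidesmosomes and other forms in nerve and muscle, had 12.33, 12.52 and 12.40.

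The armadillo proteins were detected with all 9 Xl-PSIDs. Plakoglobin, shared by desmosomes and adherens junctions, had 12.54, 12.81 and 12.23 from *jup.S* and 12.26, 12.47 and 11.73 from *jup.L*. The plakophilin gene *pkp3.S* had 11.83, 12.10 and 12.09, and *pkp3.L* had 8.03, 8.97 and 8.87. The plakophilin gene *pkp2.L* had 11.12, 10.90 and 12.48 on an Xl-PSID and 11.73, 10.28 and 11.19 on the other. These are the same gene, yet they were highest on different arrays. The relative *pkp4*, found at several kinds of junction, had 11.45 ± 0.41 (L) and 9.23 ± 0.24 (S), both lowest on s50_3.

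The desmosomal membrane protein gene *perp.S* had 12.87, 12.94 and 12.50. The single desmosomal cadherin among the members, *dsc3.S* (desmocollin), had 6.61, 5.36 and 5.76, the lowest level of the detected junction genes when each is taken at its brightest Xl-PSID. The epithelial gene *pof1b.S* had 8.68, 8.58 and 8.43 on an Xl-PSID, 6.97, 2.28 and 6.40 on another (Xl2.52666.1.S1_a_at) and 1.96 ± 0.01 on the last (Xl2.52666.1.S1_at). Xl2.52666.1.S1_a_at had the largest SD of all detected members (2.56), with s50_2 near the floor. The symbols *krtcap2.L* (12.82, 12.83 and 13.57), for a subunit of the enzyme that attaches sugars to new proteins, and *krtcap3.L* (9.32, 8.87 and 8.56) match the pattern by name but encode neither a filament nor a desmosome protein.

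The epidermal regulators among the members were at the floor. The gene *tp63*, whose product maintains basal cells of stratified epithelia, had 2.03, 2.10 and 2.13 from its L copy, and 1.99, 2.07 and 2.12 on the brighter Xl-PSID of its S copy. The gene *grhl1.L*, whose product activates the XK81A1 keratin gene in the *X. laevis* embryo, had 2.01, 2.08 and 2.10 on the brightest of 3 Xl-PSIDs, none of which was detected. For *grhl3* the values were 2.06, 2.19 and 2.11 (L) and 1.98, 4.20 and 2.03 (S). The S copy on s50_2 was the single value of a regulator above 4. Of 7 measured genes on a list of other epithelial regulators, 2 were detected, *tfap2a.L* (7.38 ± 0.67) and *tfap2a.S* (5.79 ± 0.48), while *klf5.S* (2.22 ± 0.07), *znf750* and *trim29* were not.

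Partners at the cell surface were looked up from lists. Of 10 measured genes of epithelial adhesion 9 were detected, beside 73.3% of Xl-PSIDs with a single gene symbol. That share counts every Xl-PSID, whereas a listed gene counts by its brightest, so the count is not matched to it. The epithelial cell adhesion genes *epcam.S* (13.72 ± 0.22) and *epcam.L* (13.31 ± 0.28) were detected. So were *ctnnb1.L* (14.05 ± 0.08), which is the adherens junction relative of plakoglobin, and E-cadherin *cdh1.S* (9.57 ± 0.95). The Xl-PSID of the tight junction gene *tjp1.S* (2.42 ± 0.05) was not detected. For hemidesmosomes and contacts with the basal lamina, 3 of 9 listed genes were measured and all 3 were detected. They were the integrin genes *itga3.L* (11.05 ± 0.35) and *itga6.L* (6.13 ± 0.94), and *cd151.L* (8.07 ± 0.38). From a list of the epidermal cell envelope and its partners, 1 of 10 genes was measured, *cldn4.L* with 13.28 ± 0.77.

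Members came as an L and an S copy for 18 genes. Both copies were detected for 9, neither for 5, and the S copy alone for 4. These 4 were *krt70* (3.35 ± 1.27 for L and 12.50 ± 0.49 for S), *krt17* (L copy at the floor and 7.09 ± 1.13), *lmnb2* (2.11 ± 0.05 and 7.38 ± 0.98) and *lmnb3* (2.17 ± 0.17 and 5.53 ± 0.77), each by its brightest Xl-PSID. No gene had its L copy alone detected. The same counts were not made for all L and S pairs on the array, so no preference for a subgenome can be read from these. Within *krt70*, both copies were lowest on s50_1 and highest on s50_3, but the L copy (2.14, 3.22 and 4.68) was above 4 on s50_3 alone. Different probes measure the copies, so their levels were not tested against each other. Among 14 genes with more than 1 Xl-PSID, 4 had Xl-PSIDs on both sides of the threshold (*krt8.1.S*, *lmnb1.S*, *lmnb2.S* and *pof1b.S*).

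The spread between pools was moderate for most members. The median SD of the 57 detected members was 0.38, beside 0.48 for all detected Xl-PSIDs, and 14 members (24.6%) spanned 1.5 or more from lowest to highest array, beside 26.5% of all detected Xl-PSIDs. The count was 6 without s50_1, 8 without s50_2 and 8 without s50_3, beside 11.7%, 21.2% and 9.58% of all detected Xl-PSIDs, since fewer arrays can only narrow a range. Spread fell with level on these arrays. At means of 12 to 16, none of 20 members and 3.74% of all Xl-PSIDs had such a range. At means of 4 to 8, it was 9 of 12 members and 48.8% of all, with median SDs of 1.05 and 0.77. Of these 9, 7 were keratins (*krt61.L*, *krt78.7.L*, *krt18.3.L*, *krt17.S*, *krt57.L*, *krt18.1.S* and *krt15.2.L*). Most of the 12 members at these means were keratins too, *krt15.1.S* being the keratin without such a range. Of the others, *lmnb2.S* and an Xl-PSID of *pof1b.S* had it, and *dsc3.S* and *lmnb3.S* did not. These are too few to judge whether keratins stand apart, and this was not tested.

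**Figure D3:**
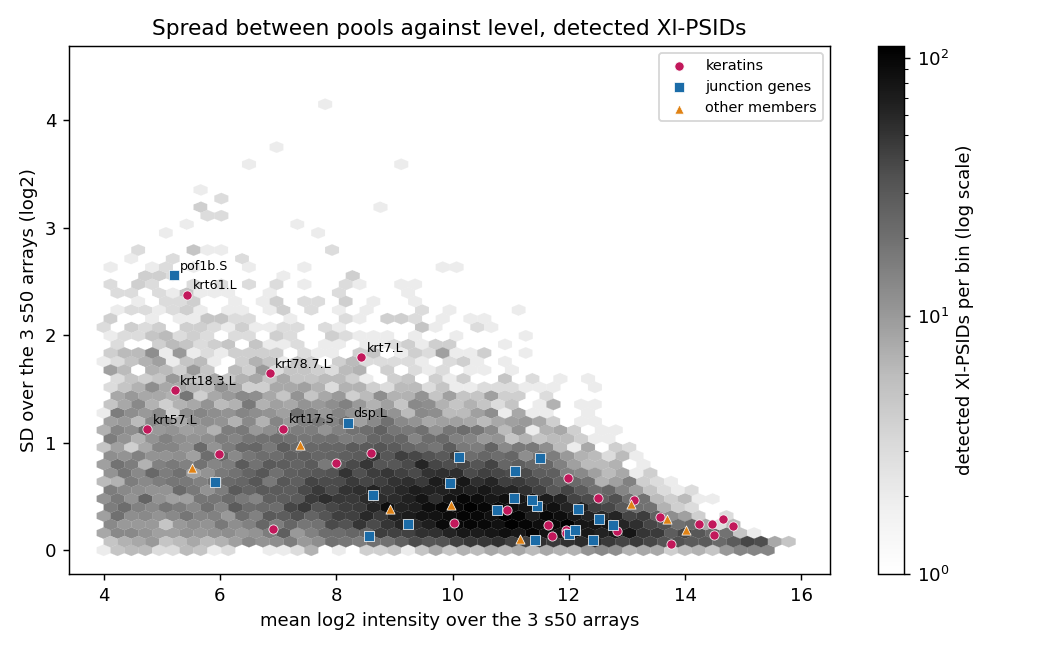
SD over the 3 s50 arrays against mean log2 intensity for detected keratins (circles), junction genes (squares) and other members (triangles), over all detected Xl-PSIDs in grey (darker bins hold more, on a log scale). The 8 members with the largest SD are named, from *krt57.L* at 1.12 to *pof1b.S* at 2.56.

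The arrays did not differ in the same way for all roles. Keratins other than *krt7*, *krt8*, *krt18* and *krt19* were low on s50_1. Of the 11 detected, 10 had their lowest value there, beside 42.3% of all detected Xl-PSIDs, with a median difference of -0.70 from their own means. The exception was *krt15.1.S*. On s50_2 and s50_3 the medians were 0.27 and 0.46. This group of keratins was set after seeing the values, and the share of 42.3% is not matched for level. Of all 28 detected keratin Xl-PSIDs, 16 were lowest on s50_1, with a median difference of -0.21 there. They include *krt18.3.L* (-1.70) and *krt18.1.S* (-0.76). Both vimentin Xl-PSIDs and 5 of 8 plakin Xl-PSIDs were lowest on s50_1 too, with median differences of -0.22 and -0.15. Among the 11 keratins other than *krt7*, *krt8*, *krt18* and *krt19*, 6 had a range of at least 1.5 with all arrays. Beside them, 26.5% of all detected Xl-PSIDs and 48.8% of those with means of 4 to 8 had such a range. It was seen in 1, *krt57.L*, without s50_1, in 5 without s50_2 and in 4 without s50_3, beside the shares of 11.7%, 21.2% and 9.58% given above. The median differences of all detected Xl-PSIDs were -0.03, 0.03 and 0.05.

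Markers of some other tissues were lowest on s50_1 too. The skin gland gene *magainins.L* had 8.24, 9.33 and 9.66 on its brightest Xl-PSID. The linear intensities of the 6 epidermis and skin gland genes summed to 327 on s50_1, 796 on s50_2 and 849.5 on s50_3, with *itln1.L*, *foxi1.L*, *levi.L* and *levi.2.L* at or near the floor on every array. For the 4 measured muscle genes, all detected, the sums were 35412, 64819 and 74448. For 3 leukocyte genes, of which 2 were detected and *ptprc.L* was at the floor (2.03 ± 0.04), they were 95.0, 213 and 295. For 3 melanocyte genes, with *mitf.L* at the floor (2.12 ± 0.04), they were 13400.2, 17554 and 23349. The 7 genes of the neuron list summed to 56717, 47199.9 and 31591, and 5 of its 6 detected genes were lowest on s50_3. The sixth, *nefl.L* (11.29, 11.57 and 11.85), was lowest on s50_1, and *nefm.L* and *nefm.S*, which are not on that list, were highest on s50_3. Other lists had other orders. Epithelial adhesion genes summed to 61605, 65614 and 54453. Of the 9 detected, 6 were lowest on s50_3, among them *cldn1.S* (8.94 ± 2.48), 1 on s50_2 and 2 on s50_1, among them *cdh1.S*. The envelope partner *cldn4.L* (13.75, 13.70 and 12.38) was also lowest on s50_3. The 3 genes of hemidesmosomes and basal lamina contacts summed lowest on s50_2 (1974). A sum follows the brightest genes of its list. Sums were highest on s50_1 for cartilage and bone (101056, 96753 and 87207), yet 3 of the 6 detected genes were lowest there. Endothelium, measured by the 2 copies of *egfl7* alone, also had its highest sum on s50_1 (7570, 6092 and 5664). Its *egfl7.S* (7.56, 8.70 and 9.21) was nevertheless lowest there. The sum of otoconia, tectorial and supporting cell genes was highest on s50_1 too (41535.5, 40605.5 and 40448.6), with 2 of 6 detected genes lowest there. The 2 hair cell genes summed lowest on s50_2 (7299.5), but *ush1c.S* (11.17, 11.42 and 12.08) was lowest on s50_1. Erythroid genes summed lowest on s50_3 (59612). The part of these tissues in the keratin differences was not tested. Animals per pool and RNA input differed between arrays too, and each array is a pool of its own, so pool and array cannot be told apart.

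The keratins 7, 8, 18 and 19, also grouped after seeing values, were mostly below their own means on s50_1 (14 of 17 detected Xl-PSIDs) and s50_2 (13 of 17). Of all 21156 detected Xl-PSIDs, 11222 lay below their own means on s50_1 and 9529 on s50_2. Of the 17 detected Xl-PSIDs, 13 had their highest value on s50_3, beside 42.8% of all detected Xl-PSIDs, and 9 had their lowest on s50_2, beside 21.5%. Of these 17 Xl-PSIDs 7 belong to *krt19* and 5 to *krt7*, so they are not independent. The *krt18.1.L* Xl-PSID, lowest on s50_2, differed little between s50_1 and s50_2 (12.85 and 12.83). Median differences over the 17 were -0.11, -0.16 and 0.27, beside a median SD of 0.25. The 21 detected junction Xl-PSIDs had their lowest value on each array equally often, 7 times. Among the armadillo proteins, 5 of 9 were lowest on s50_3, beside 36.2% of all detected Xl-PSIDs. No test of a difference between roles was made.

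**Figure D4:**
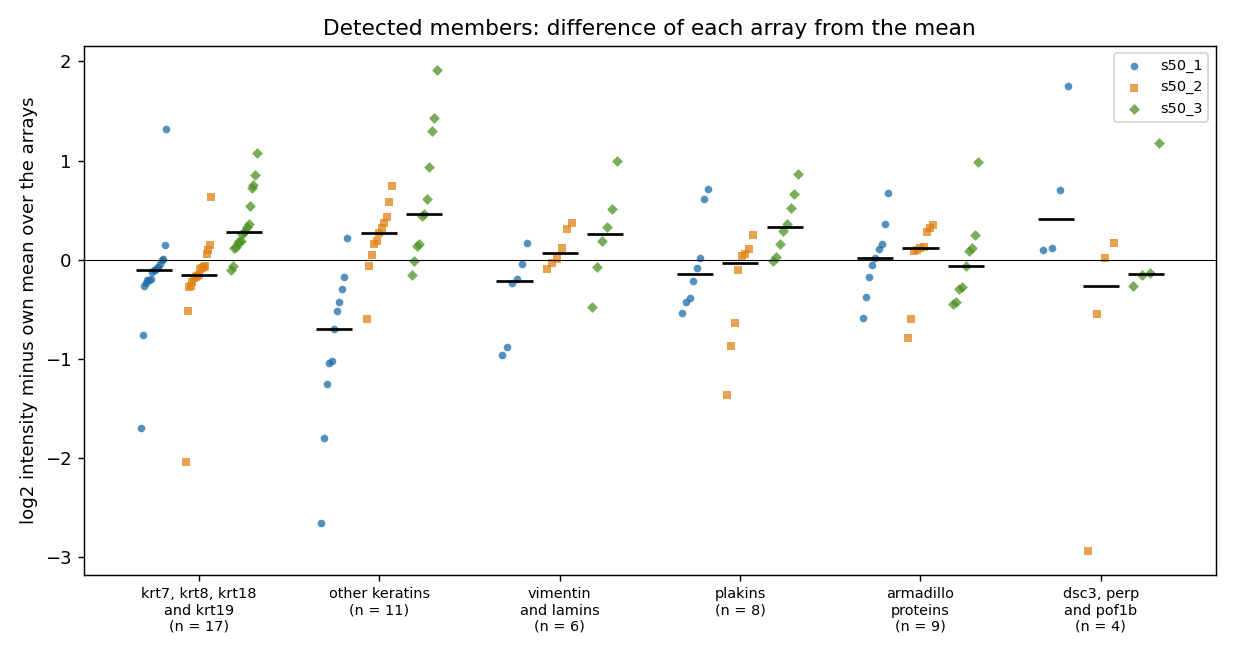
Log2 intensity of each detected member on s50_1 (circles), s50_2 (squares) and s50_3 (diamonds) minus its own mean over the arrays, by role, with black bars for medians and n counting Xl-PSIDs. *krtcap2.L* and *krtcap3.L* are not shown. Keratins other than *krt7*, *krt8*, *krt18* and *krt19* have a median of -0.70 on s50_1, whereas the armadillo proteins have medians between -0.06 and 0.12. These groups are not matched for level, with median levels of 7.09 and 11.45 over their detected Xl-PSIDs. The split of the keratins was set after seeing values.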

How the data were processed

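The authors preprocessed the scans of Affymetrix *X. laevis* arrays with GCRMA in JMP Genomics and deposited a log2 intensity for 32635 Xl-PSIDs on each of 3 arrays. These values were used as deposited. Whether GCRMA also covered arrays of other stages is not known here, and such arrays were not analysed here. Symbols came from the platform's annotation (15505 Xl-PSIDs with 1 symbol, 279 with several, 16851 with none). All 60 member symbols matched RefSeq by gene ID and none had changed. Gene order came from RefSeq (Xenopus_laevis_v10.1), and no coordinates or sequences are given. A run joined keratin genes with at most 4 other protein-coding genes between them.

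Members and lists were chosen with earlier results of these data known, and the grouping of *krt7*, *krt8*, *krt18* and *krt19* was set after seeing values. Keratins krt50 to krt70 were assigned to type I or II by the run they lie in. Named on each array are the brightest genes of a role, the 8 detected members with the largest SD, genes with Xl-PSIDs on both sides of 4, the members nearest to 4, vimentin, the regulators, and members in the paper's tables. Other members named with array values were chosen after seeing them. A gene was represented by its brightest Xl-PSID. Of the members, 16 have IDs ending in _a_at, _s_at or _x_at, which can match several transcripts. Detection counts, medians, SDs and ranges were computed in Python 3.11.15 with pandas 2.3.3. In the code for the alternatives, detection counts, counts of wide ranges and median differences between arrays were checked on simulated data. SDs and median levels were not checked in this way. The number of arrays limits the precision, and with a single group no comparison was tested. Alternatives were thresholds of 3 and 5 for detection, a value of 4 or more on each array, medians of arrays, quantile normalization, centring, leaving out Xl-PSIDs that can match several transcripts, other ranges, other ways to represent a gene, and leaving out each replicate.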

Additional observations from a re-analysis of the deposited data

How the results depend on the processing

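Of 75 values recomputed under an alternative, 63 stayed within 1.5 times a count or SD, or within the spread between arrays for a level or difference. For the median differences this spread was the median SD of 0.38, which is larger than the differences themselves. All their alternatives were therefore counted as unchanged, and that count says little about them. The 57 detected members and 41 detected genes were the same without each replicate. With a range of 2 in place of 1.5, 7 members passed, and leaving out a replicate gave 6 to 8, since the range of fewer arrays cannot be larger. For keratins other than *krt7*, *krt8*, *krt18* and *krt19* that count, chosen after seeing the data, was 1 without s50_1 and up to 5 without another replicate. The median SD was 0.24 with all members, which adds those at the floor, and 0.20 (without s50_3) to 0.40 without a replicate. The median level of members was 8.10 with 1 Xl-PSID per gene, 11.36 with detected members, 8.87 with the median of the arrays, 7.09 without Xl-PSIDs open to cross-matching by their suffix, and 8.28 to 8.55 without a replicate. The median difference of all detected members from their means was -0.18, 0.02 and 0.25 over s50_1, s50_2 and s50_3. It was 0, 0 and 0.05 when taken from the median of the arrays, -0.21, -0.0049 and 0.30 with centred arrays, and between -0.18 and -0.07 on s50_1, between -0.16 and 0.07 on s50_2 and between 0.16 and 0.18 on s50_3 without a replicate. No paired analysis was possible because all arrays belong to 1 group. With 3 arrays, none was tested as an outlier. Values near the floor were not read as an order of levels. The *Bacillus subtilis* controls there rose slightly from s50_1 to s50_3, such as 1.97, 2.01 and 2.03 for AFFX-LysX-5_at.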
